A study of Mus musculus with 13 samples.

Results

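Purinergic receptors are the proteins through which microglia sense extracellular nucleotides. The genes described here are 6 such receptors for purines or pyrimidines, the related receptor Gpr34 and 1 nucleotide-hydrolysing enzyme. They are P2ry12, P2ry13, P2ry6, P2rx4, P2rx7, Gpr34, Adora3 and Entpd1, each taken by its exact name from a table of 20971 genes, so 8 of 20971. All 8 were present and all 8 passed a filter of 0.5 RPKM or more as the mean over all 13 libraries. RPKM is the read count scaled to gene length and library depth. The filter left 13343 genes in all. The libraries were made from total RNA of whole cortex of mice aged 6 months on the C57BL/6 strain. APPPS1;Apoe-/- mice gave 7 libraries and APPPS1 mice 6. APPPS1 is a transgenic model of cerebral amyloidosis. Its transgenes include human mutant APP and are driven by the neuronal Thy1 promoter. By the genotype labels both groups carried them. Apoe, which encodes the lipid carrier apolipoprotein E, was deleted in every cell of the APPPS1;Apoe-/- mice, and mice without the transgenes were not analysed here. By its labels the design therefore compares the 2 genotypes in the presence of amyloid.

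Nucleotides leak from or are released by stressed and active cells, and microglia read them through metabotropic P2Y receptors, which couple to G proteins, and ionotropic P2X receptors, which are ATP-gated cation channels. The enzyme Entpd1 (CD39) on the microglial surface degrades ATP and ADP, and the adenosine formed further down this chain acts on a separate family of receptors, to which Adora3 belongs. P2ry12 is a widely used marker of homeostatic microglia, and its level is known to drop in microglia that gather at amyloid plaques.

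Apoe was measured at 4.01 to 6.35 RPKM in APPPS1;Apoe-/- libraries, against 463 to 670 RPKM in APPPS1 libraries. Separately, the genotype written beside the deposited RPKM values matched the sample label in 13 of 13 libraries. The deposited number of alignments ran between 18455493 and 34538031 in APPPS1;Apoe-/- libraries, against 28402328 and 77005806 in APPPS1 libraries, so depth moved with genotype. APPPS1;Apoe-/- replicates 2 and 5 stood apart, with App at 106 and 116 RPKM and Thy1 at 52.2 and 56.9 RPKM, whereas App ran between 176 and 217 RPKM in the other 11 libraries. Results are therefore given with and without these 2 libraries. Whether these 2 libraries came from mice that carried the transgenes was not tested. Xist, the RNA made from the inactive X chromosome of females, was under 1 RPKM in 2 APPPS1;Apoe-/- libraries and 1 APPPS1 library. The study states its group sizes in mice, 7 and 6, so each library is taken as 1 mouse.

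Of the 8 genes, Gpr34 and P2ry6 fell in APPPS1;Apoe-/- cortex both with all 13 libraries and without the 2 low-App libraries. P2ry13 and P2rx7 fell by a smaller amount that passed the test only with all 13 libraries. P2ry12, P2rx4, Adora3 and Entpd1 did not pass the test in either comparison, and none of the 8 genes rose. In limma fits across all 13343 genes with Benjamini-Hochberg adjustment, 4 of 8 genes were lower at an adjusted p under 0.05, against 4.74% of all genes, and 0 of 8 were higher, against 3.48%. At an unadjusted p under 0.05, 6 of 8 differed, against 25.0% of all genes. The median log2 change of the 8 was -0.26, against -0.01 over all genes tested. Without the low-App libraries 2 of 8 genes were lower, against 3.30% of all genes, 0 were higher, against 1.78%, and the median log2 change was -0.17. Changes are APPPS1;Apoe-/- minus APPPS1 on the log2(RPKM + 0.5) scale, which understates the change of genes near or below 1 RPKM. In bulk tissue, fewer microglia and less RNA per microglial cell cannot be told apart.

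**Figure D1:**
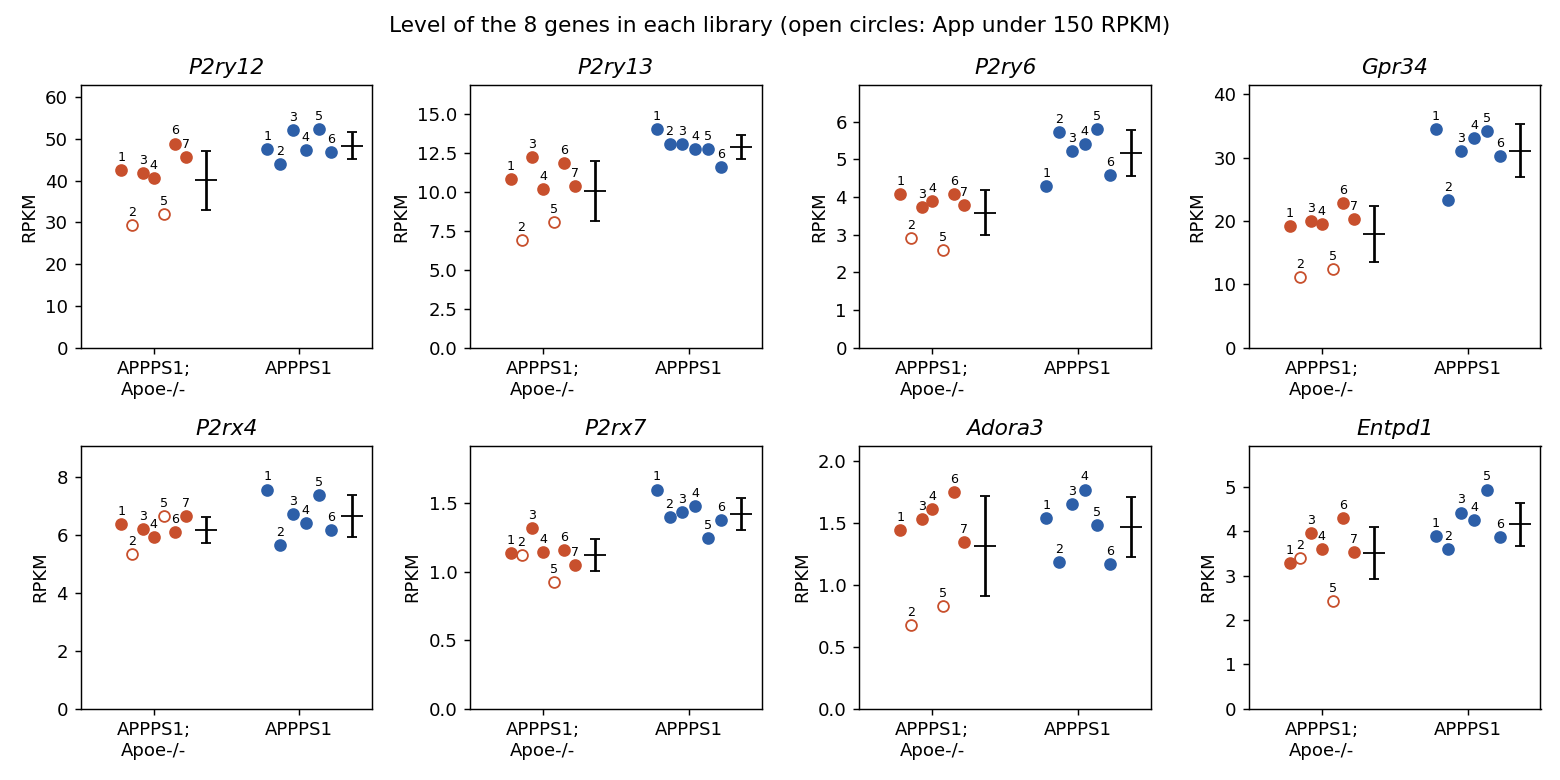
RPKM of each of the 8 genes in every library, with APPPS1;Apoe-/- on the left and APPPS1 on the right of each panel, where bars mark group means and SD, and open points are the 2 libraries with App under 150 RPKM. All 7 APPPS1;Apoe-/- points lie below all 6 APPPS1 points for Gpr34 and P2ry6, as for 2.17% of all genes tested. The groups overlap for the other 6 genes.

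P2ry12 is a Gi-coupled receptor for ADP, best known for steering microglial processes towards injury and, on platelets, as the target of clopidogrel. P2ry13, another Gi-coupled ADP receptor, lies next to it on the same strand. In mm10, P2ry12 spans chr3:59216272-59262871 and P2ry13 spans chr3:59207892-59210882, both on the minus strand and 5.4 kb apart, and both lie inside Med12l, which runs on the opposite strand. P2ry12 shares 9 exonic bases with Med12l and P2ry13 shares 0. The strand setting used in counting is not given in the sources used here. The 250 bases before each gene start in RefSeq on GRCm38.p6 are shown because they are the upstream DNA of the 2 neighbours. They are written 5′ to 3′ on the minus strand, at chr3:59262986-59263235 for P2ry12 and chr3:59210883-59211132 for P2ry13. For P2ry12 the RefSeq start lies outside the span given above, so its window does not adjoin that span. Capitals mark GAGGAA, a core recognised by the myeloid factor PU.1.
P2ry12: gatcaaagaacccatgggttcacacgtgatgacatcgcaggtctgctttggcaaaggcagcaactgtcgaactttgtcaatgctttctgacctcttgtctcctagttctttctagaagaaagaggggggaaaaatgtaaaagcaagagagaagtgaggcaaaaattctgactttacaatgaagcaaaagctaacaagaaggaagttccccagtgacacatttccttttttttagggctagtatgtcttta
P2ry13: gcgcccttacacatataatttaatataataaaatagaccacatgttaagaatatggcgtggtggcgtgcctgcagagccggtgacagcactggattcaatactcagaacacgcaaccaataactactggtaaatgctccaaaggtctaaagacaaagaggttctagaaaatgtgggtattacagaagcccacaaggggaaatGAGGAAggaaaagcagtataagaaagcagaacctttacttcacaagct
The search covered GAGGAA and its reverse complement TTCCTC and found 1 match upstream of P2ry13, 48 bases before the gene start, and 0 upstream of P2ry12. The RefSeq windows matched 6 of the 8 genes, all but P2ry6 and Gpr34, and 3 of these 6 (P2ry13, Adora3 and Entpd1) held the motif in 3 of their 8 windows, while 23.3% of all 32851 windows of this length held it. A match describes the letters and is not a measured binding site.

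P2ry12 was the most abundant of the 8 genes in both groups. Its lowest, median and highest levels were 29.4, 41.8 and 48.9 RPKM in APPPS1;Apoe-/- libraries, against 43.9, 47.5 and 52.4 RPKM in APPPS1 libraries. The 2 low-App libraries were the lowest of all, and 5 of 7 APPPS1;Apoe-/- libraries lay below the lowest APPPS1 library. Means were 40.1 ± 7.03 RPKM in APPPS1;Apoe-/- libraries and 48.4 ± 3.31 RPKM in APPPS1 libraries (SD, n = 7 and 6). The log2 change was -0.28 with an SE of 0.10 and missed the threshold (limma, adjusted p = 0.0927). With the low-App libraries left out, the APPPS1;Apoe-/- mean was 43.9 ± 3.35 RPKM (SD, n = 5) and the log2 change was -0.14 (limma, adjusted p = 0.208).

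P2ry13 had a lowest, median and highest level of 6.95, 10.4 and 12.3 RPKM in APPPS1;Apoe-/- libraries, against 11.6, 12.9 and 14.1 RPKM in APPPS1 libraries. The groups overlapped, with 5 of 7 APPPS1;Apoe-/- libraries below the lowest APPPS1 library. P2ry13 averaged 10.1 ± 1.94 RPKM in APPPS1;Apoe-/- libraries and 12.9 ± 0.787 RPKM in APPPS1 libraries (SD, n = 7 and 6). Its log2 change was -0.36 with an SE of 0.11 and passed the test narrowly (limma, adjusted p = 0.0469). The call was lost without the low-App libraries, where the log2 change was -0.21 (limma, adjusted p = 0.0719), with log2 alignments entered as a covariate (-0.27, limma, adjusted p = 0.321), and on leaving out any 1 of 10 of the 13 libraries.

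The ratio of the neighbours P2ry12 and P2ry13 did not differ between the genotypes by the test. The log2 level of P2ry12 minus that of P2ry13 averaged 1.94 ± 0.110 in APPPS1;Apoe-/- libraries and 1.87 ± 0.127 in APPPS1 libraries (SD, n = 7 and 6). The difference of 0.08 gave p = 0.260 in an exact two-sided permutation test over 1716 assignments of genotype to library, with an adjusted p of 0.260 over the 3 gene pairs compared, which does not show that the 2 genes respond alike. Around this locus P2ry14 was higher, as described further on, and Med12l was not called. Med12l, a Mediator kinase-module subunit, averaged 1.04 RPKM in APPPS1;Apoe-/- libraries and 1.09 RPKM in APPPS1 libraries.

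P2ry6 encodes a receptor for UDP that couples to Gq and is known for starting microglial phagocytosis. In mm10 it spans chr7:100937630-100974649 on the minus strand, on the chromosome that carries Apoe and 81.2 Mb from it. Its lowest, median and highest levels were 2.59, 3.80 and 4.09 RPKM in APPPS1;Apoe-/- libraries, against 4.30, 5.31 and 5.81 RPKM in APPPS1 libraries. All 7 APPPS1;Apoe-/- libraries lay below all 6 APPPS1 libraries, a separation in this direction that 2.17% of all genes tested showed. P2ry6 averaged 3.58 ± 0.594 RPKM in APPPS1;Apoe-/- libraries and 5.18 ± 0.610 RPKM in APPPS1 libraries (SD, n = 7 and 6). The log2 change was -0.48 with an SE of 0.10 and a 95% interval of -0.69 to -0.27 (limma, adjusted p = 0.00768). Without the low-App libraries the APPPS1;Apoe-/- mean was 3.92 ± 0.158 RPKM (SD, n = 5), the groups still did not overlap, which held for 2.84% of all genes, and the log2 change was -0.36 (limma, adjusted p = 0.0139). With log2 alignments entered as a covariate the change was -0.44 and the call was lost (limma, adjusted p = 0.105).

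Gpr34 is a receptor for lysophosphatidylserine that is related to the P2Y receptors by sequence and is known from microglial responses to myelin and dying cells. In mm10 it spans chrX:13632089-13640858 on the plus strand, inside Cask on the opposite strand, with 0 shared exonic bases. Gpr34 had the largest log2 change of the 8 genes with all 13 libraries and without the low-App libraries. Its lowest, median and highest levels were 11.2, 19.6 and 22.8 RPKM in APPPS1;Apoe-/- libraries, against 23.3, 32.1 and 34.6 RPKM in APPPS1 libraries. All 7 APPPS1;Apoe-/- libraries lay below all 6 APPPS1 libraries, as held for 2.17% of all genes tested. The nearest libraries of the 2 groups were close, at 22.8 RPKM in APPPS1;Apoe-/- and 23.3 RPKM in APPPS1 cortex.

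Gpr34 averaged 17.9 ± 4.38 RPKM in APPPS1;Apoe-/- libraries and 31.1 ± 4.19 RPKM in APPPS1 libraries (SD, n = 7 and 6), a ratio of 0.577. The log2 change was -0.81 with an SE of 0.15 and a 95% interval of -1.12 to -0.49 (limma, adjusted p = 0.00419). Over the 11 other libraries the APPPS1;Apoe-/- mean was 20.4 ± 1.43 RPKM (SD, n = 5), the ratio was 0.656 and the log2 change was -0.59 (limma, adjusted p = 0.00157). With log2 alignments entered as a covariate the log2 change was -0.75 over 13 libraries and the call was lost (limma, adjusted p = 0.0708). Under the same covariate without the low-App libraries, Gpr34 was the 1 of 8 genes called lower, against 1.48% of all genes, and 0 were higher, against 0.630%. The lowest APPPS1 library, replicate 2, was also the one with Xist under 1 RPKM. Cask, the scaffold gene around it, changed by -0.01 on the log2 scale and was not called.

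The change of Gpr34 was larger than that of P2ry12 within the same libraries. The log2 level of P2ry12 minus that of Gpr34 averaged 1.16 ± 0.133 in APPPS1;Apoe-/- libraries and 0.64 ± 0.162 in APPPS1 libraries (SD, n = 7 and 6). The 7 APPPS1;Apoe-/- libraries ran between 1.03 and 1.36 and the 6 APPPS1 libraries between 0.46 and 0.90, without overlap. The difference of 0.52 gave p = 0.000583 in an exact two-sided permutation test, the smallest that 1716 assignments allow, and an adjusted p of 0.00175 over the 3 pairs. Its direction was already known from earlier results when the pair was set, so these p-values are not an independent test. Leaving out the low-App libraries gave a difference of 0.45 (exact permutation p = 0.00433, adjusted p = 0.0130, 462 assignments). With only libraries above 1 RPKM Xist and without the low-App libraries it was 0.50 (n = 3 and 5). The exact permutation p of 0.0179 is the smallest that 56 assignments allow. Given the p-values of the other pairs, the adjusted p of 0.0536 could not have been lower.

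**Figure D2:**
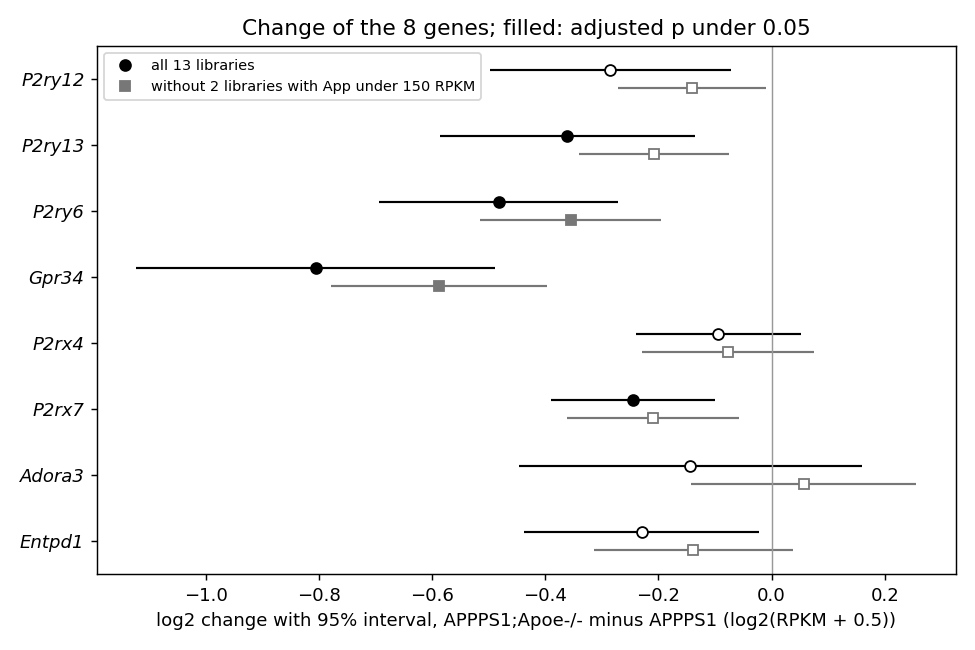
Log2 change of each of the 8 genes, APPPS1;Apoe-/- minus APPPS1, with its 95% interval from limma, over all 13 libraries and without the 2 libraries with App under 150 RPKM. Gpr34, P2ry6, P2ry13, P2rx7 and P2ry12 have unadjusted intervals below 0 in both fits, Entpd1 only with all libraries and P2rx4 in neither, and the Adora3 estimate lies at -0.14 with all libraries and at 0.06 without the low-App libraries.

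P2rx4 and P2rx7 encode ATP-gated channels, P2rx4 known for microglial signalling in neuropathic pain and P2rx7 for opening at high ATP and driving interleukin-1 release. The genes are neighbours on the plus strand of chromosome 5, at chr5:122707544-122729738 for P2rx4 and chr5:122643911-122691432 for P2rx7 in mm10, 16.1 kb apart. P2rx4 had a lowest, median and highest level of 5.35, 6.22 and 6.67 RPKM in APPPS1;Apoe-/- libraries, against 5.65, 6.57 and 7.58 RPKM in APPPS1 libraries. The ranges overlapped, with 1 of 7 APPPS1;Apoe-/- libraries below the lowest APPPS1 library and 3 of 6 APPPS1 libraries above every APPPS1;Apoe-/- library. Its log2 change was -0.09 with a 95% interval of -0.24 to 0.05 (limma, adjusted p = 0.426).

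By mean RPKM P2rx7 was the least abundant of the 8 genes. Adora3 exceeded it in 5 of 7 APPPS1;Apoe-/- and 3 of 6 APPPS1 libraries. Lowest, median and highest levels of P2rx7 were 0.926, 1.14 and 1.32 RPKM in APPPS1;Apoe-/- libraries, against 1.24, 1.42 and 1.60 RPKM in APPPS1 libraries. In 6 of 7 APPPS1;Apoe-/- libraries it was below the lowest APPPS1 library. Means were 1.12 ± 0.119 RPKM in APPPS1;Apoe-/- libraries and 1.42 ± 0.119 RPKM in APPPS1 libraries (SD, n = 7 and 6), and the log2 change was -0.25 (limma, adjusted p = 0.0363). The call was lost without the low-App libraries (-0.21, limma, adjusted p = 0.109), under quantile normalization (-0.19, limma, adjusted p = 0.0986), with log2 alignments entered as a covariate (-0.17, limma, adjusted p = 0.325) and on leaving out any 1 of 10 of the 13 libraries. The log2 level of P2rx4 minus that of P2rx7 was 0.15 higher in APPPS1;Apoe-/- libraries, a difference that did not pass an exact permutation test (p = 0.136, adjusted p = 0.205).

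Adora3, the Gi-coupled adenosine A3 receptor, spans chr3:105870858-105908926 in mm10 and shares 779 exonic bases with Tmigd3 on the same strand, so its reads could be split between the 2 genes. Tmigd3 was at or below 0.173 RPKM in every library. Adora3 had a lowest, median and highest level of 0.673, 1.44 and 1.75 RPKM in APPPS1;Apoe-/- libraries, against 1.17, 1.51 and 1.77 RPKM in APPPS1 libraries. The 2 low-App libraries, at 0.673 and 0.830 RPKM, lay below all others, and the remaining 5 APPPS1;Apoe-/- libraries overlapped the APPPS1 libraries. The log2 change was -0.14 with all libraries (limma, adjusted p = 0.578) and 0.06 without the low-App libraries, with a 95% interval of -0.14 to 0.26 (limma, adjusted p = 0.781).

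Entpd1, the ectonucleotidase CD39 that degrades ATP and ADP, spans chr19:40612366-40741602 in mm10. It is also made by endothelial cells. Its lowest, median and highest levels were 2.43, 3.53 and 4.31 RPKM in APPPS1;Apoe-/- libraries, against 3.59, 4.08 and 4.95 RPKM in APPPS1 libraries, with 4 of 7 APPPS1;Apoe-/- libraries below the lowest APPPS1 library. The log2 change was -0.23 with all libraries (limma, adjusted p = 0.158) and -0.14 without the low-App libraries (limma, adjusted p = 0.366).

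By mean RPKM the order of the 8 genes was the same in both groups, P2ry12 first, then Gpr34, P2ry13, P2rx4, P2ry6, Entpd1, Adora3 and P2rx7. Neighbours in the order overlapped in APPPS1;Apoe-/- libraries for Gpr34 with P2ry13, P2ry6 with Entpd1 and Adora3 with P2rx7. In APPPS1 libraries the overlaps were P2rx4 with P2ry6, P2ry6 with Entpd1 and Adora3 with P2rx7. P2ry6 exceeded Entpd1 in 4 of 7 APPPS1;Apoe-/- libraries and in 6 of 6 APPPS1 libraries.

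The low-App libraries set much of the spread within APPPS1;Apoe-/- cortex. Both were below the other 5 APPPS1;Apoe-/- libraries for 5 of the 8 genes (P2ry12, P2ry13, P2ry6, Gpr34 and Adora3), against 7.14% of all genes tested. Their mean was 0.490 of the mean of the other 5 for Adora3, 0.578 for Gpr34 and 0.700 for P2ry12, but 0.960 for P2rx4. The coefficient of variation of Gpr34 was 24.4% over all 7 APPPS1;Apoe-/- libraries, 7.03% over 5, and 13.5% in APPPS1 libraries. That of P2rx4 was 7.41% over 7, 4.43% over 5, and 11.0% in APPPS1 libraries.

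The genes used as a general microglial reference moved with the genotype too. Of 12 reference genes such as Csf1r, Itgam and Irf8, 10 were tested and 8 were lower, with a median log2 change of -0.60, and without the low-App libraries 7 were lower with a median of -0.40. Their summed level was 162 to 251 RPKM in APPPS1;Apoe-/- libraries, against 289 to 330 RPKM in APPPS1 libraries, without overlap. Of 14 genes known to be induced in microglia at plaques, 14 were lower, with a median of -1.17, for example Clec7a, a fungal glucan receptor, at 1.32 RPKM in APPPS1;Apoe-/- and 7.76 RPKM in APPPS1 libraries. Of 13 homeostatic microglial genes, 4 were lower and 1 was higher, with a median of -0.22. Crybb1, the gene that rose, had a log2 change of 0.74 (limma, adjusted p = 0.0036).

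Against that reference 5 of the 8 genes stood higher, and the median of all genes shifted by 0.60. The mean log2 level of the 10 reference genes was subtracted in each library. As this list was itself lower in APPPS1;Apoe-/- cortex, the subtraction alone raised most genes. Relative to it 5 of 8 genes were higher, against 93.1% of all genes, and 0 were lower, against 0.352%. Without the low-App libraries 6 were higher, against 85.7%, and 0 were lower, against 0.450%. P2ry12 stood 1.62 to 1.93 log2 units above the reference in APPPS1;Apoe-/- libraries and 1.44 to 1.65 in APPPS1 libraries, a difference of 0.32 (limma, adjusted p = 0.0433). Gpr34 stood 0.53 to 0.81 above the reference in APPPS1;Apoe-/- libraries and 0.54 to 1.0 in APPPS1 libraries, a difference of -0.20 that did not pass the test (limma, adjusted p = 0.196). P2ry6 changed by 0.12 relative to the reference (limma, adjusted p = 0.401), and P2rx4 by 0.51 (limma, adjusted p = 0.00249). Beyond these values the part of the microglial reference in the results was not tested.

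**Figure D3:**
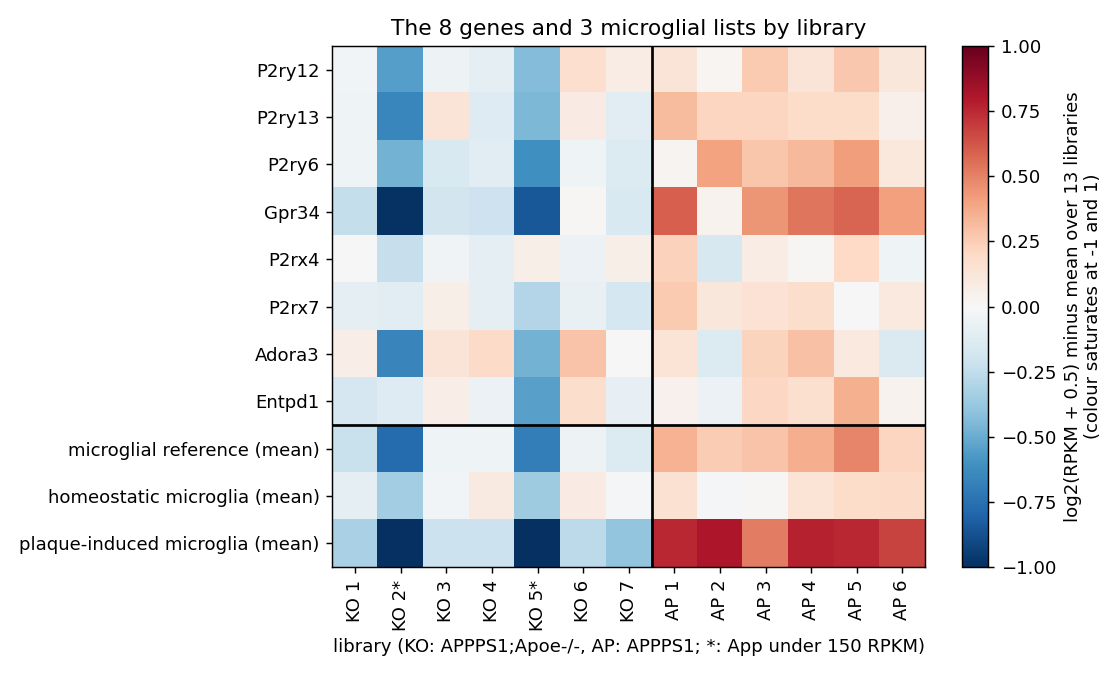
Log2(RPKM + 0.5) of the 8 genes, and the mean of 3 microglial lists, in each library, each row centred on its mean over all 13 libraries, with APPPS1;Apoe-/- libraries left of APPPS1 libraries. All 3 lists are lowest in APPPS1;Apoe-/- replicates 2 and 5, as are P2ry12, P2ry13, P2ry6, Gpr34 and Adora3.

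Markers of other cell types were read in the same libraries. Of 7 perivascular macrophage genes, 4 were tested, 1 (Stab1) was higher and 0 were lower, at a summed 5.03 to 8.69 RPKM in APPPS1;Apoe-/- and 5.32 to 8.41 RPKM in APPPS1 libraries. Platelet genes, which bear on P2ry12, summed to 1.16 to 1.75 RPKM in APPPS1;Apoe-/- and 1.16 to 1.89 RPKM in APPPS1 libraries, with Ppbp at or below 0.124 RPKM and 0 of 2 tested genes called. Leukocyte genes summed to 1.18 to 5.81 RPKM in APPPS1;Apoe-/- and 0.958 to 3.33 RPKM in APPPS1 libraries, with Cd3e at or below 0.351 RPKM and 0 of 2 tested genes called. Endothelial genes, which bear on Entpd1, summed to 66.0 to 82.3 RPKM in APPPS1;Apoe-/- and 51.1 to 70.7 RPKM in APPPS1 libraries, with 1 of 8 lower (Kdr) and 1 higher (Slc2a1), and without the low-App libraries 1 lower (Cldn5) and 1 higher (Slc2a1). Of 8 oligodendrocyte genes 4 were higher, with a median log2 change of 0.32, and 1 was higher without the low-App libraries, with a median of 0.23. Among 7 astrocyte genes the test called 2 lower and 1 higher with all libraries, against 1 lower and 0 higher once the low-App libraries were left out. Of 7 neuronal genes 1 was lower, and 0 were called without the low-App libraries. Of 4 tested oligodendrocyte precursor genes 0 were called in either comparison, with 1 at an unadjusted p under 0.05 in the limma fit of all libraries and 2 without the low-App libraries. Of 8 striatal genes 1 was called higher, but all 8 had a positive log2 change, 7 had an unadjusted p under 0.05 in limma, and the median was 0.50. Without the low-App libraries 0 striatal genes were called, 3 had an unadjusted p under 0.05 and the median was 0.36. The summed striatal level was 342 to 749 RPKM in APPPS1;Apoe-/- and 263 to 702 RPKM in APPPS1 libraries, so the ranges overlapped. The part of these cell types and of tissue content in the results was not tested.

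Among the other nucleotide and adenosine receptors, the nucleotide-handling enzymes and the ATP-release genes, 4 genes were called and all 4 were higher. Of 13 other genes named as P2Y, P2X or adenosine receptors, P2ry10 among them, 5 were tested, 1 was higher and 0 were lower. In every library 7 were below 0.5 RPKM. The receptor that rose was P2ry14, which binds UDP-glucose and lies in the same gene cluster as P2ry12. It averaged 3.11 RPKM in APPPS1;Apoe-/- and 2.47 RPKM in APPPS1 libraries, a log2 change of 0.28 (limma, adjusted p = 0.0178), and 0.32 without the low-App libraries (limma, adjusted p = 0.0171). Adora1, the main adenosine receptor of neurons, averaged 24.0 RPKM in APPPS1;Apoe-/- and 21.2 RPKM in APPPS1 libraries and was not called. Adora2a, a striatal adenosine receptor, averaged 4.60 RPKM in APPPS1;Apoe-/- and 3.40 RPKM in APPPS1 libraries and was not called.

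Of 16 ectonucleotidases and nucleoside-handling genes, 15 were tested, 2 were higher and 0 were lower. Entpd4, a nucleotidase of the Golgi and lysosome, averaged 5.95 RPKM in APPPS1;Apoe-/- and 3.77 RPKM in APPPS1 libraries (log2 change 0.61, limma, adjusted p = 0.00122), but its reads may be shared with the near-identical copy Entpd4b. Ada, which converts adenosine to inosine, averaged 0.894 RPKM in APPPS1;Apoe-/- and 0.415 RPKM in APPPS1 libraries (log2 change 0.60, limma, adjusted p = 0.0045). Nt5e (CD73), which makes adenosine from AMP, averaged 2.45 RPKM in APPPS1;Apoe-/- and 1.91 RPKM in APPPS1 libraries and was not called. Of 5 genes of ATP release, 4 were tested and Lrrc8a, the core subunit of volume-regulated anion channels, was higher at 48.7 RPKM in APPPS1;Apoe-/- and 41.9 RPKM in APPPS1 libraries (log2 change 0.22, limma, adjusted p = 0.00676).

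Downstream of the receptors few genes passed the test. Of 12 genes of Gi and PI3-kinase signalling, 10 were tested and 1 was lower, Pik3r6, a regulator of PI3-kinase gamma, with a log2 change of -0.31 (limma, adjusted p = 0.0446) that lost its call without the low-App libraries (-0.34, limma, adjusted p = 0.0805). Of 7 genes of the inflammasome, which P2rx7 is known to trigger, 6 were tested and 1 was lower, the adaptor Pycard, at 2.40 RPKM in APPPS1;Apoe-/- and 4.19 RPKM in APPPS1 libraries (log2 change -0.72, limma, adjusted p = 0.00285). Nlrp3, the sensor itself, was at or below 0.462 RPKM in every library. Of 5 genes of lysophosphatidylserine handling, the ligand pathway of Gpr34, 3 were tested and 1 was higher, the phospholipase Pla1a, at 0.982 RPKM in APPPS1;Apoe-/- and 0.616 RPKM in APPPS1 libraries (log2 change 0.40, limma, adjusted p = 0.0165), a call lost without the low-App libraries (0.36, limma, adjusted p = 0.0659). Of 8 genes beside or overlapping the 8, 5 were tested and 1, P2ry14, was higher.

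**Figure D4:**
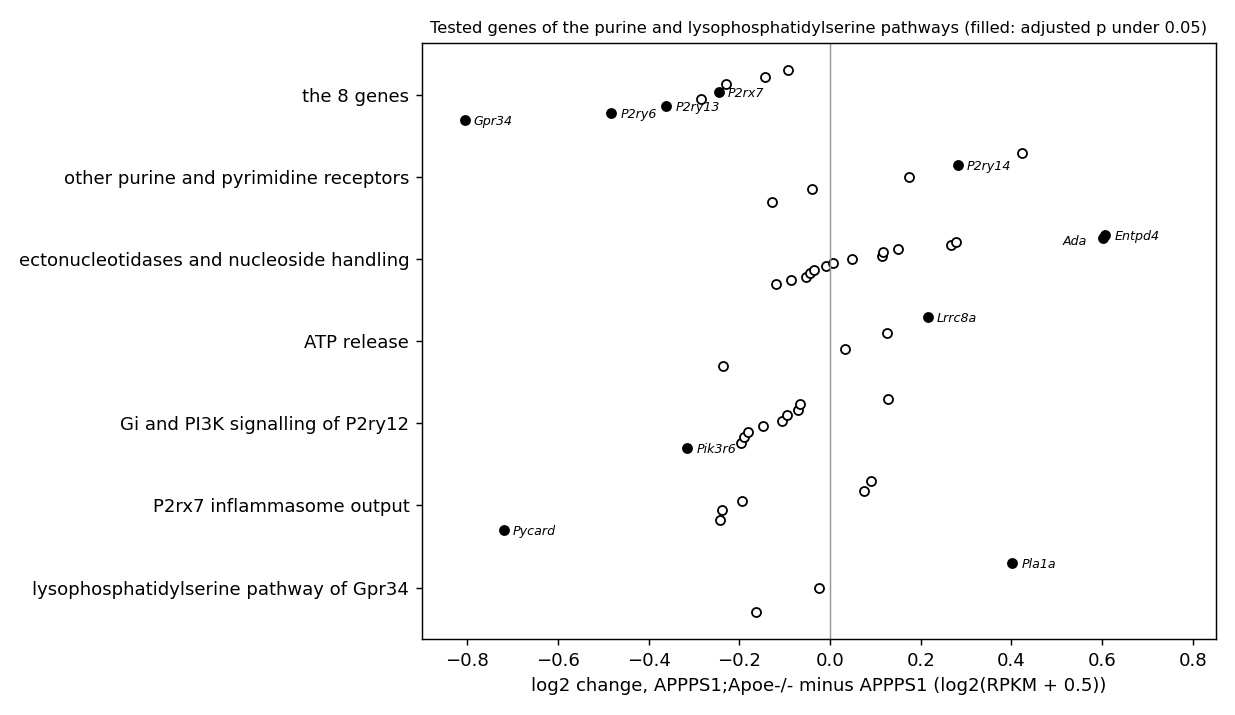
Log2 change of every tested gene in the 8-gene group and 6 lists of the purine and lysophosphatidylserine pathways, APPPS1;Apoe-/- minus APPPS1, with filled points for an adjusted p under 0.05 in limma. The called genes of the 8 and of the inflammasome and PI3-kinase lists lie below 0, and P2ry14, Entpd4, Ada, Lrrc8a and Pla1a lie above 0.

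Likeness of pattern was measured as the root mean square difference of mean-centred log2 levels over the 13 libraries among 11795 genes averaging 1 RPKM or more. Among the nearest to Gpr34 were Ctsz (0.120) and Ctsd (0.131), against a spread of Gpr34 itself of 0.496. Nearest to P2ry12 were Hmox1 (0.0953), Pld4 (0.0997) and Lcp2 (0.102), against its own spread of 0.237. Nearest to P2ry13 were Man2b1 (0.0928), Nckap1l (0.103) and Hpgds (0.104), and nearest to P2ry6 were Nckap1l (0.110), Man2b1 (0.116) and Renbp (0.116). Nearest to Adora3 were Pld4 (0.109), App (0.115) and Adgre1 (0.148). For P2rx4 the nearest were Ostf1 (0.0701), Upf3a (0.0797) and Rab39b (0.0817), for P2rx7 Tnfrsf19 (0.0720), Stxbp2 (0.0737) and Ptpre (0.0805), and for Entpd1 Nav1 (0.0903), Sowahc (0.0954) and Adam17 (0.0979). The libraries share genotype, depth and the low-App pair, so these values describe the pattern only.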

How the data were processed

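RNA of 7 APPPS1;Apoe-/- and 6 APPPS1 cortices was measured by RNA-seq, with libraries made with a SMARTer kit per the labels. The authors deposited RPKM values per gene and a count of alignments per library. Partek and mm10 are named per the submitters' processing notes, and the aligner, annotation, strand setting and counting step were not given in those sources. For 1676 weak genes, RPKM times alignments was divided by the smallest such value above 0 of the same gene. Of 9153 ratios, 94.8% lay within 0.1 of a whole number. Read counts were not recovered, and no count test was run. limma 3.58.1 in R 4.3.3 (lmFit, eBayes with trend) was fitted on log2(RPKM + 0.5) over 13343 genes averaging 0.5 RPKM or more over all 13 libraries. The fits used Benjamini-Hochberg adjustment with a threshold of 0.05. The same fit was also run on simulated data, with the outcome not given here. No library was a copy of another, the 78 pairs correlating at 0.981 to 0.994 across genes. Gene pairs were tested with exact two-sided permutation tests. Named genes were the 8, Apoe and App, up to 4 called genes with the smallest adjusted p per list with defining markers, and the 3 genes nearest in pattern to each of the 8, of which 1 is not reported here. The 8 genes and the lists were chosen with earlier results of these data known, as was the direction of the difference between P2ry12 and Gpr34. The libraries held 18455493 to 77005806 alignments each. Alternatives covered scaling, filters, pseudocounts, covariates and left-out libraries. Gp6 and Ly6g were not analysed here.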

Additional observations from a re-analysis of the deposited data

How the results depend on the processing

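No paired analysis was possible because the labels give no replicate numbers shared between the groups. Each log2 change of the 8 genes was recomputed under 31 alternatives. With log2 alignments entered as a covariate, the change was -0.27 for P2ry13, -0.44 for P2ry6, -0.17 for P2rx7 and -0.75 for Gpr34, and 0 of 8 genes were called. Without the low-App libraries as well it was -0.17 for P2ry13, -0.39 for P2ry6 (not called, limma, adjusted p = 0.0542), -0.17 for P2rx7 and 0.089 for Adora3. Without the low-App libraries alone it was -0.21 for P2ry13, -0.21 for P2rx7 and 0.057 for Adora3. With only libraries above 1 RPKM Xist it was -0.44 for P2ry13 (limma, adjusted p = 0.0586) and -0.29 for P2rx7 (limma, adjusted p = 0.0688), and both calls were lost. Adding the removal of the low-App libraries, an alternative chosen after seeing the data, gave -0.24 for P2ry13, -0.33 for P2ry6, -0.25 for P2rx7 and 0.036 for Adora3, and 0.50 for P2ry12 minus Gpr34. There P2ry6 lost its call (limma, adjusted p = 0.132), as did P2ry13 (limma, adjusted p = 0.172) and P2rx7 (limma, adjusted p = 0.239), while Gpr34 kept its call (limma, adjusted p = 0.000941). P2ry13 also lost its call with no filter on low values (-0.36), with RPKM scaled to the same sum (-0.37) or upper quartile (-0.38), under quantile normalization (-0.36) and without a trend in eBayes (-0.36), and P2rx7 under quantile normalization (-0.19). Relative to the microglial reference the changes were 0.32 for P2ry12, 0.24 for P2ry13, 0.12 for P2ry6, 0.51 for P2rx4, 0.36 for P2rx7, -0.20 for Gpr34, 0.46 for Adora3 and 0.38 for Entpd1, and without the low-App libraries 0.28, 0.22, 0.070, 0.35, 0.22, -0.16, 0.48 and 0.29 in the same order. The construction subtracts a list that fell. Leaving out 1 library gave -0.33 to -0.21 for P2ry12, which was called without APPPS1;Apoe-/- replicate 6 (limma, adjusted p = 0.0492), -0.41 to -0.28 for P2ry13, -0.53 to -0.42 for P2ry6, -0.14 to -0.06 for P2rx4, -0.27 to -0.21 for P2rx7, -0.89 to -0.70 for Gpr34, -0.20 to -0.04 for Adora3 and -0.28 to -0.16 for Entpd1. For the gene pairs it gave 0.48 to 0.57 for P2ry12 minus Gpr34, 0.04 to 0.11 for P2ry12 minus P2ry13 and 0.10 to 0.21 for P2rx4 minus P2rx7. P2ry6 and Gpr34 kept their calls in 13 of 13 such fits. In all, 633 genes were called lower and 465 higher. These counts became 132 and 70 with alignments as a covariate, 197 and 84 without the low-App libraries as well, 296 and 183 with only libraries above 1 RPKM Xist, 159 and 61 with the low-App libraries also removed, 47 and 12426 relative to the microglial reference, and 60 and 11435 relative to it without the low-App libraries. In addition 237 were higher without the low-App libraries. Leaving out 1 library gave 435 to 853 lower and 276 to 741 higher genes, with 290 higher without APPPS1 replicate 2, 276 without APPPS1 replicate 6 and 741 without APPPS1;Apoe-/- replicate 4. The cause of the lost calls was not tested. Depth tended to be lower in APPPS1;Apoe-/- libraries, and P2rx7 and Adora3 lay near 1 RPKM. The coefficient of variation of Adora3 was 30.9% over 7 APPPS1;Apoe-/- libraries, 10.1% over the 5 without low App, and 16.7% in APPPS1 libraries. That of P2rx7 was 10.6%, 8.53% and 8.34% in the same order. The part of depth in this spread was not tested.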
